A study of Mus musculus with 2 samples.

Results

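Dual specificity MAPK phosphatases were examined in B cells of mouse peripheral lymph nodes, taken from mice without a functional Ccr7 gene and from wild-type mice. Ccr7 is the receptor for Ccl19 and Ccl21, by which lymphocytes and dendritic cells find their way into the nodes. The genes were Dusp1, Dusp2, Dusp4, Dusp5, Dusp6, Dusp7, Dusp10 and Dusp16. Non-control spots of both arrays were taken where the gene name in the scanner file was one of these names. This gave 9 probes for 7 of the 8 genes, out of 41174 probes and 27597 gene names on the array. The expression of Dusp5 was not analysed here, and only the stretch before its start was searched. All 7 genes and 8 of the 9 probes passed the filter on dim probes, which 17688 genes passed in all. The family was chosen with the difference between the genotypes known, since Dusp1 was lower in the knock-out. Its ratios of knock-out over wild-type are therefore given as a description and without a test.

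The knock-out cells came from strain B6.129P2(C)-Ccr7tm1Rfor/J and the wild-type cells from C57BL/6J. The cells were sorted by flow cytometry and lysed for RNA without culture. No treatment is named, and age and sorting markers are not given in the sources used here. Of 12 RNA samples, 6 per genotype, 3 at a time were pooled, and each of 2 two-colour arrays held 1 knock-out and 1 wild-type pool. The knock-out was labelled with Cy5 on array 1 and with Cy3 on array 2, so that n = 2 throughout and the spread between single mice cannot be seen. The name of the knock-out strain gives a donor strain other than B6, and the knock-out is carried in all cells of the mouse.

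MAP kinases (ERK, JNK and p38) are switched on when an upstream kinase phosphorylates a threonine and a nearby tyrosine. Dual specificity MAPK phosphatases remove both phosphates and so end the signal. Dusp1, Dusp2, Dusp4 and Dusp5 are nuclear enzymes whose genes are induced by the kinases they act on, Dusp6 and Dusp7 are cytoplasmic and prefer ERK, and Dusp10 and Dusp16 prefer JNK and p38. In lymphocytes the kinases respond to the antigen receptor and to chemokine receptors, and Dusp2 was first known as a phosphatase of activated blood cells.

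The stretch before the start of Dusp1 is shown because Dusp1 was the member with the lowest ratio, and short stretches of other genes are shown because they carry the same letters. Sequences are from RefSeq on GRCm38.p6, where 7 of the 8 genes matched, all but Dusp4. The 250 bases before each start were searched on both strands for TGACGTCA (the cAMP response element), for its part TGACG, for the AP-1 element TGANTCA, for the E-box CACGTG and for the CArG box. The first sequence is chr17:26508473-26508722, minus strand, and ends at the base before the start. Capitals mark TGACGTCA, TGACG and CACGTG.
Dusp1: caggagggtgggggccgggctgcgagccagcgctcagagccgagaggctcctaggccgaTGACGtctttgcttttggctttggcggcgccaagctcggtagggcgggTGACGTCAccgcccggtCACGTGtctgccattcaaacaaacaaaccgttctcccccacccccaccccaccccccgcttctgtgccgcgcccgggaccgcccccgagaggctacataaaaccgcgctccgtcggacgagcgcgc
The others are chr2:127336030-127336075 on the plus strand for Dusp2, chr7:45526269-45526300 on the minus strand for Ppp1r15a and chr13:110394962-110395009 on the plus strand for Plk2. Ppp1r15a and Plk2 are no members and had ratios close to those of Dusp1.
Dusp2: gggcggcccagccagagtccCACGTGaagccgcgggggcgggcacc
Ppp1r15a: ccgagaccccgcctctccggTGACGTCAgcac
Plk2: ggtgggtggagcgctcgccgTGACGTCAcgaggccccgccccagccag

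TGACGTCA stood 143 to 136 bases before the start of Dusp1 and in no other member searched, which leaves out Dusp4. Of 32851 promoters searched, 1.55% held it. CACGTG stood 126 to 121 bases before the start of Dusp1 and 109 to 104 bases before that of Dusp2, against 6.02% of all promoters. TGACG, which the longer element contains on both strands, was found in Dusp1, Dusp5 and Dusp16 and in 17.8% of all promoters. No member searched held TGANTCA in this window (6.75% of all promoters), and the CArG box was found in Dusp5 (1.47% of all promoters). These matches describe letters and do not show binding.

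More spots had signal in the Cy5 channel than in the Cy3 channel on both arrays. Well above background were 68.2% of knock-out and 63.1% of wild-type spots on array 1, and 58.4% of knock-out and 68.8% of wild-type spots on array 2. No spot was saturated, but the brightest spots were scaled up from a second scan at low gain. Of the members, 2 had such a channel, Dusp2 and Dusp6. With 2 arrays, precision is limited for all values. Ccr7 itself had log2 ratios of -1.11 and -0.74, and whether its probe lies in the deleted part is not known here. Its probe is on chromosome 11, where none of the members' probes lies.

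Dusp1 had the lowest ratio of the family and was lower in the knock-out on both arrays. This phosphatase, also called MKP-1, is an immediate early gene that acts on p38, JNK and ERK. The probe matches the minus strand of chromosome 17 (26233451 to 26233508 on mm8). Before any correction the spot had a mean intensity of 1260 in the knock-out (local background 63) against 3628 in the wild-type (local background 49) on array 1. On array 2 it had 481 in the knock-out (background 48) against 1409 in the wild-type (background 59). The knock-out signal was the lower one in either dye, well above background each time and never scaled up.

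After background correction and normalization the log2 level of Dusp1 was 9.93 and 9.59 in the knock-out pools and 11.56 and 10.20 in the wild-type pools. The genotypes did not overlap. The wild-type pools lay further apart from each other than the knock-out pools did. The log2 ratio, knock-out over wild-type, came to -1.62 on array 1, a 3.08-fold lower level, and to -0.61 on array 2, a 1.52-fold lower level. The mean was -1.11 ± 0.72 (SD, n = 2), or 2.16-fold lower. The arrays therefore shared the direction and differed in size by close to the mean itself. Among the 17688 genes tested, ordered from the lowest ratio, Dusp1 had rank 15 by the mean, rank 8 on array 1 and rank 312 on array 2. No other member differed by 1.5-fold or more with 1 sign on both arrays, and 0.367% of all genes tested were lower by that much on both. Since the cells were measured in bulk, fewer cells that express the gene and less RNA per cell cannot be told apart.

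**Figure D1:**
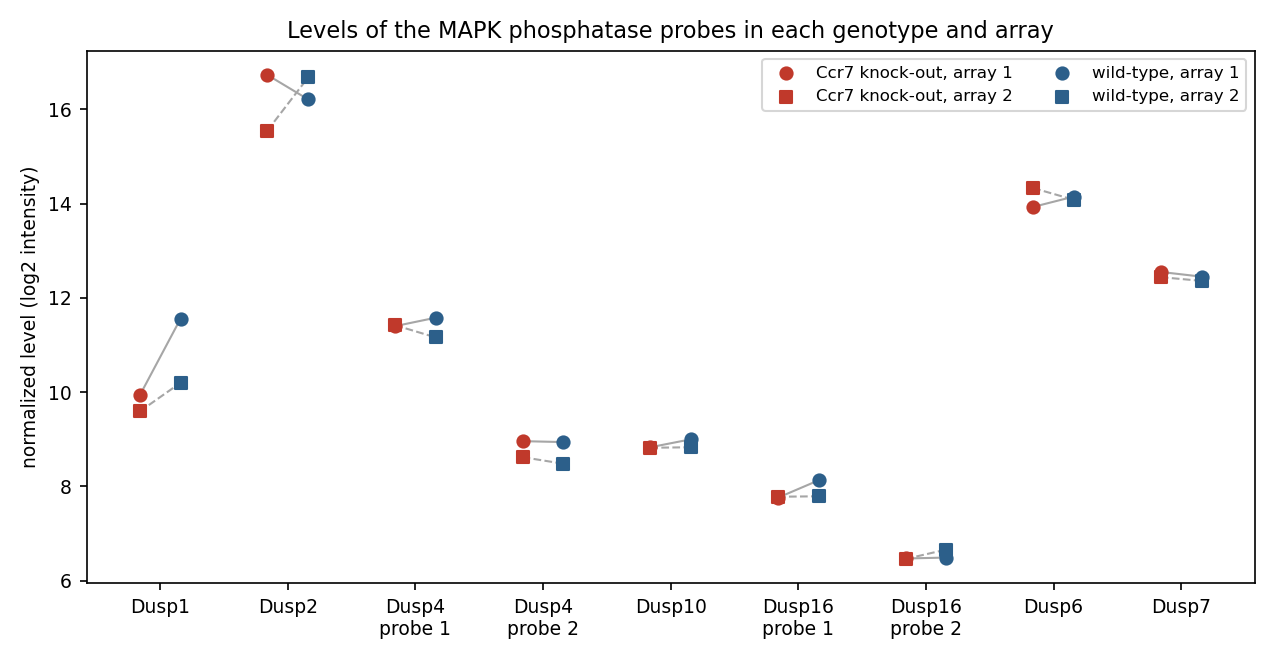
Normalized log2 level (vertical axis) of each of the 9 probes in the knock-out pools (red, left of each pair) and the wild-type pools (blue, right), with circles for array 1 and squares for array 2. Lines join the pools of 1 array, and heights of different probes cannot be compared. For Dusp1 both knock-out points (9.93 and 9.59) lie below both wild-type points (11.56 and 10.20), and for Dusp2 the lines cross.

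Dusp2, another inducible nuclear phosphatase, gave ratios of opposite sign on the arrays. Its probe lies on chromosome 2 (127029635 to 127029694 on mm8), and all of its channels were bright enough to be scaled up at low gain. The log2 level was 16.73 and 15.55 in the knock-out pools against 16.21 and 16.68 in the wild-type pools. The genotypes overlapped, with the lowest and the highest value both in the knock-out. Array 1 gave a log2 ratio of 0.51 and array 2 one of -1.13 (mean -0.31 ± 1.16, SD, n = 2). The size on array 1 depended on the handling of this bright spot. The scanner program's own log2 ratio was 0.01 on array 1 and -0.90 on array 2, and the authors' deposited table has -0.26 and -0.71. No direction can be given for Dusp2 from these arrays.

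Dusp4, which encodes the nuclear phosphatase MKP-2, had probes at a pair of places on chromosome 8. The brighter probe (36290269 to 36290328 on mm8) had a log2 level of 11.40 and 11.42 in the knock-out against 11.58 and 11.16 in the wild-type. The arrays gave log2 ratios of -0.18 and 0.26 (mean 0.04 ± 0.31, SD, n = 2). The dimmer probe (36287508 to 36287567) had 8.96 and 8.62 in the knock-out against 8.94 and 8.48 in the wild-type, with log2 ratios of 0.02 and 0.13. The genotypes overlapped by either probe, and the means of 0.04 and 0.08 from these probes lay close to 0.

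The ERK-directed cytoplasmic phosphatases had means near 0. Dusp6, also called MKP-3 and a feedback inhibitor of ERK, was measured on chromosome 10 (98697039 to 98697098 on mm8). Its log2 level was 13.93 and 14.33 in the knock-out against 14.15 and 14.08 in the wild-type. The knock-out held both the lowest and the highest value, and the log2 ratios were -0.23 and 0.25 (mean 0.01 ± 0.33 SD, n = 2). Of its 4 channels, only that of the knock-out on array 2 was not scaled up. Dusp7, a close relative of Dusp6, was measured on chromosome 9 (106233467 to 106233526). It had 12.55 and 12.44 in the knock-out against 12.45 and 12.36 in the wild-type, with log2 ratios of 0.10 and 0.08. It was the only member higher in the knock-out on both arrays, by 1.06-fold in the mean, and its genotypes overlapped across arrays.

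The JNK- and p38-directed phosphatases were slightly lower in the knock-out on array 1 and nearly level on array 2. Dusp10, or MKP-5, on chromosome 1 (185775985 to 185776044 on mm8) had a log2 level of 8.83 and 8.82 in the knock-out against 9.0 and 8.83 in the wild-type. Its log2 ratios were -0.18 and -0.02 (mean -0.10 ± 0.11 SD, n = 2). Dusp16, or MKP-7, on chromosome 6 (134681331 to 134681371) had 7.76 and 7.78 in the knock-out against 8.13 and 7.79 in the wild-type. Its log2 ratios were -0.37 and -0.01 (mean -0.19 ± 0.26 SD, n = 2). Before rounding the genotypes did not overlap for either gene, but on array 2 they were within 0.02 of each other. By the scanner program's own log2 ratio Dusp10 had 0.05 and Dusp16 had 0.07 on array 2, so the direction there depended on the processing. The other Dusp16 probe (134683678 to 134683737) was well above background in the wild-type channel of array 2 alone, so no fold is given for it.

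Of the 7 members measured, 3 were lower on both arrays (Dusp1, Dusp10 and Dusp16), where 30% of all genes tested were. One member, Dusp7, was higher on both (24.2% of all genes), and 3 had opposite signs. The genotypes did not overlap for 3 members, all lower in the knock-out, but for Dusp10 and Dusp16 by narrow gaps. Of all genes, 13.3% were lower in this way and 22.9% did not overlap in either direction. The rule used this contrast, so nothing is read from these shares. The members' median log2 ratio was -0.18 on array 1, -0.01 on array 2 and -0.10 for the mean of the arrays. The median of all genes was 0 on array 1, -0.02 on array 2 and -0.01 for the mean of the arrays. The mean differed by less than 1.2-fold for 5 of the 7 members.

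**Figure D2:**
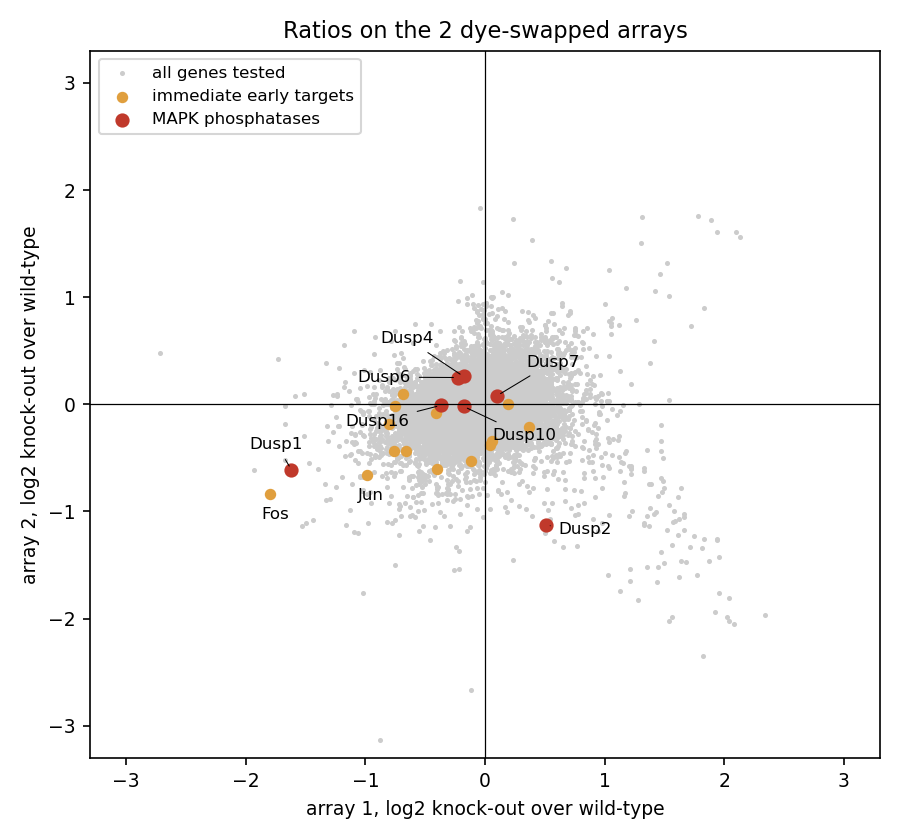
Knock-out over wild-type log2 ratio on array 1 (horizontal axis) and array 2 (vertical axis) for all genes tested (grey), 14 immediate early targets of MAP kinases (orange) and the 7 phosphatases (red). Dusp1 lies at -1.62 and -0.61 near Fos, and Dusp2 at 0.51 and -1.13 has opposite signs. The other 5 phosphatases lie within 0.37 of 0 on each array.

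The genes with ratios most like those of Dusp1 were found by the smallest Euclidean distance between the pairs of log2 ratios, over 2 arrays. They were Ahnak, a large scaffold protein (distance 0.161), Ppp1r15a, a stress-induced subunit of protein phosphatase 1 (0.227), the AP-1 subunit Fos (0.298), the circadian repressor Ciart (0.309) and the polo-like kinase Plk2 (0.31). Ppp1r15a had log2 ratios of -1.40 and -0.60, and Plk2 had -1.93 and -0.61. All 5 genes had a larger difference on array 1 than on array 2, as Dusp1 had, but their choice by distance to Dusp1 fixed this. In the limma fit over all genes their adjusted p ran from 0.151 for Ciart to 0.239 for Plk2, and none passed 0.05. TGACGTCA was found before the starts of Ppp1r15a (12 to 5 bases) and Plk2 (62 to 55 bases), and CACGTG before that of Ciart. These genes were chosen by their ratios, so the matches are a description.

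The kinases on which the phosphatases act, and the kinases above and below them, were tested in the same fit. Of 81 pathway genes in 7 lists, 69 passed the filter and 0 passed an adjusted p of 0.05 in limma, against 0.102% of all genes tested (0.0339% lower and 0.0678% higher in the knock-out). At an unadjusted p of 0.05 limma found 10 of 69 (14.5%), 9 lower and 1 higher in the knock-out, where it found 9.12% of all genes. The lists were chosen with earlier results of these data known, and 6 of these 10 were immediate early targets. The median log2 ratio over the 69 genes lay at -0.06, and 29 were lower and 10 higher on both arrays. Of all genes tested, 30% were lower and 24.2% higher on both.

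The MAP kinases themselves had a median near 0, but the arrays often disagreed. Of 9 tested, 0 passed the threshold in either direction, and the median log2 ratio was -0.02. Opposite signs on the arrays were seen for 5 of the 9, furthest apart for Mapk12, with -0.38 and 0.68. Mapk7, which encodes ERK5, had log2 ratios of -0.03 and -0.15 (adjusted p = 0.936 in limma). Among 7 MAP kinase kinases 0 passed, with a median of -0.06. Map2k1, which encodes the ERK activator MEK1, had a mean of 0.29 (adjusted p = 0.568 in limma), and Map2k3, an activator of p38, had -0.30 (adjusted p = 0.562 in limma). Of 12 genes of the MAP3 kinase and Raf list 0 passed, with a median of -0.01. The stress kinase gene Map3k5 had 0.32 and 0.59, and Map3k8, which activates the ERK branch, had -0.70 and -0.10.

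Among 9 MAPK-activated kinases 0 passed, with a median log2 ratio of -0.04. Rps6ka5, which encodes the nuclear kinase MSK1, had -0.63 and -0.53 (mean -0.58, moderated SE 0.13, n = 2, adjusted p = 0.241 in limma). Its log2 level was 9.40 and 9.23 in the knock-out against 10.03 and 9.76 in the wild-type, without overlap. Of all genes tested, 13.3% were lower in the knock-out without overlap. Mknk1, a kinase of the translation factor eIF4E, had -0.34 and -0.05. Among 7 other inhibitors of the pathway 0 passed, with a median of -0.06. The Sprouty genes Spry1 and Spry2, feedback inhibitors of receptor signalling to ERK, had means of -0.24 and -0.36, with -0.04 and -0.68 on the arrays for Spry2.

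Of 11 further dual specificity phosphatases 0 passed, with a median log2 ratio of 0.04. The lowest was Dusp3, a small phosphatase of ERK and JNK also called VHR, with -1.01 on array 1 and -0.30 on array 2. Its mean was -0.66 (moderated SE 0.18, n = 2, adjusted p = 0.335 in limma). Its log2 level was 7.13 and 6.78 in the knock-out against 8.13 and 7.09 in the wild-type. The knock-out value on array 1 lay above the wild-type value on array 2, so the genotypes overlapped. Dusp22 had -0.46 and -0.19. Dusp8 and Dusp9, which complete the 10 MAPK phosphatases of the classical group, had means of 0.04 and 0.05.

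The immediate early targets were the list with the lowest median. Of 14 tested, 0 passed the threshold, and 9 were lower and 0 higher on both arrays. Of all genes tested, 30% were lower and 24.2% higher on both. The list was chosen with earlier results of these data known, so nothing is read from these shares. The median log2 ratio of the list was -0.53 on array 1 and -0.36 on array 2. Fos had a log2 level of 11.52 and 11.33 in the knock-out against 13.32 and 12.17 in the wild-type. Its log2 ratios were -1.80 and -0.84 (mean -1.32, moderated SE 0.22, n = 2, adjusted p = 0.157 in limma). Jun, the AP-1 partner of Fos, had -0.99 and -0.66 (mean -0.82, moderated SE 0.14, adjusted p = 0.16 in limma). For both genes the genotypes did not overlap, where 13.3% of all genes tested were lower in the knock-out in this way. In a fit without the spots that needed the low-gain scan, 3 of 65 pathway genes passed, all lower in the knock-out. That fit called 131 of 16753 genes, or 0.782%, with 0.513% lower in the knock-out, so its calls were more frequent among all genes too. The 3 genes were Fos (adjusted p = 0.0109 in limma), Jun (0.0237) and the mRNA decay factor gene Zfp36 (0.0191). Zfp36 was read there by a dimmer probe, with log2 ratios of -0.92 and -0.72 (mean -0.82). Its brighter probe, which stands for the gene in the fit over 17688 genes, had -0.41 and -0.08 (mean -0.24, adjusted p = 0.69 in limma).

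**Figure D3:**
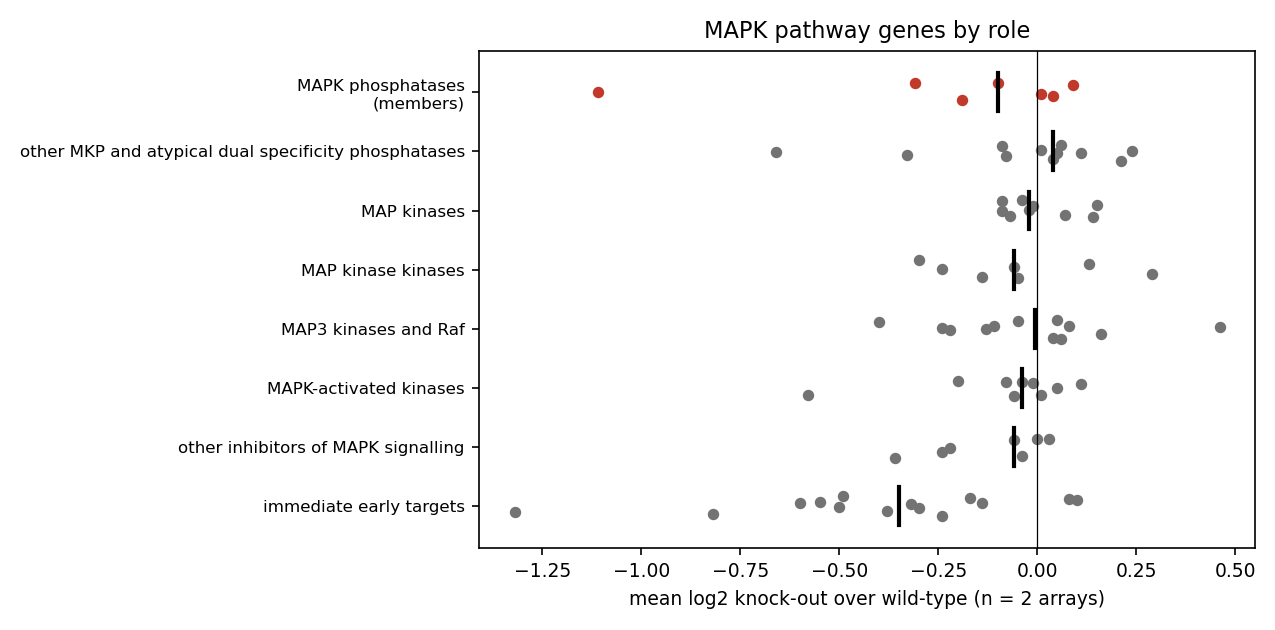
Mean knock-out over wild-type log2 ratio (horizontal axis, n = 2 arrays) of each gene tested, for the phosphatases (red, top) and the 7 pathway lists (grey), with the median as a black bar. The median was -0.10 for the phosphatases and -0.35 for the immediate early targets, and between -0.06 and 0.04 for the other lists.

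Markers of the sorted cells and of other cells were read beside these values. All 8 B cell markers passed the filter, each with a scaled-up channel, and 6 of them had opposite signs on the arrays. Their median log2 ratio was 0.16 on array 1 and -0.14 on array 2 (0.13 for the mean). Their summed linear level was 564400 and 371300 in the knock-out against 341600 and 557600 in the wild-type, so that the knock-out sum was higher on array 1 and lower on array 2. The higher sum was in the Cy5 channel on each array, and so was the higher Dusp2 level. Pool and dye orientation changed together, so they cannot be told apart in this pattern. Of 8 T cell markers, 5 were lower and 1 higher on both arrays (30% and 24.2% of all genes tested), with a median of -0.21. Their summed linear level was 13110 and 9602 in the knock-out against 11640 and 9384 in the wild-type. Of 7 myeloid and dendritic cell markers tested (of 8), 4 had opposite signs, with a median of 0.08 on array 1 and -0.35 on array 2 (0.02 for the mean). Their sum was 9415 and 6097 in the knock-out against 5001 and 9307 in the wild-type, again higher in the knock-out on array 1 and lower on array 2. Here too the Cy5 channel held the higher sum. Stroma and endothelium markers (4 of 5 tested) had a median of -0.01 and sums of 2292 and 2603 in the knock-out against 2386 and 2728 in the wild-type. Of 4 NK cell markers 2 were tested, with a median of -0.29 and summed levels of 352.3 and 273 in the knock-out against 428.4 and 376.9 in the wild-type. Ncr1, Gzma, S100a8 and Pdpn did not pass the filter on dim probes. The part of these cells, or of the dye, in the Dusp1 and Dusp2 ratios was not tested.

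The mean ratio of Dusp1 ran from -1.57 to -1.08 over the 12 settings that used both arrays. Not all of these could move it. Dusp1 had 1 probe, well above background in each channel and never scaled up. Settings that changed only the filter, the choice of probe, the scaled-up spots or the prior therefore returned -1.11 again. With no within-array normalization the arrays gave -1.53 and -1.61, while the median of all genes stood at 0.11 on array 1 and -0.95 on array 2. Relative to those medians Dusp1 had -1.64 and -0.66. Dusp2 had a negative mean in all 11 such settings that kept it, from -0.79 to -0.30. Its arrays shared a sign only with the deposited value table and with separate channels, so no direction is read from these means. Dusp4, Dusp6 and Dusp7 had a negative mean under median centring and without any within-array normalization, so that all 7 members were lower in the knock-out there. The median of all genes was -0.17 and -0.39 in those settings, and relative to it all 7 had a negative mean too. Dusp4, Dusp6 and Dusp7 then had -0.07, -0.10 and -0.03. The arrays did not share this direction for most members. Relative to the median of each array, only Dusp1 and Dusp6 were lower on both, and Dusp7 had 0.15 and -0.15.

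**Figure D4:**
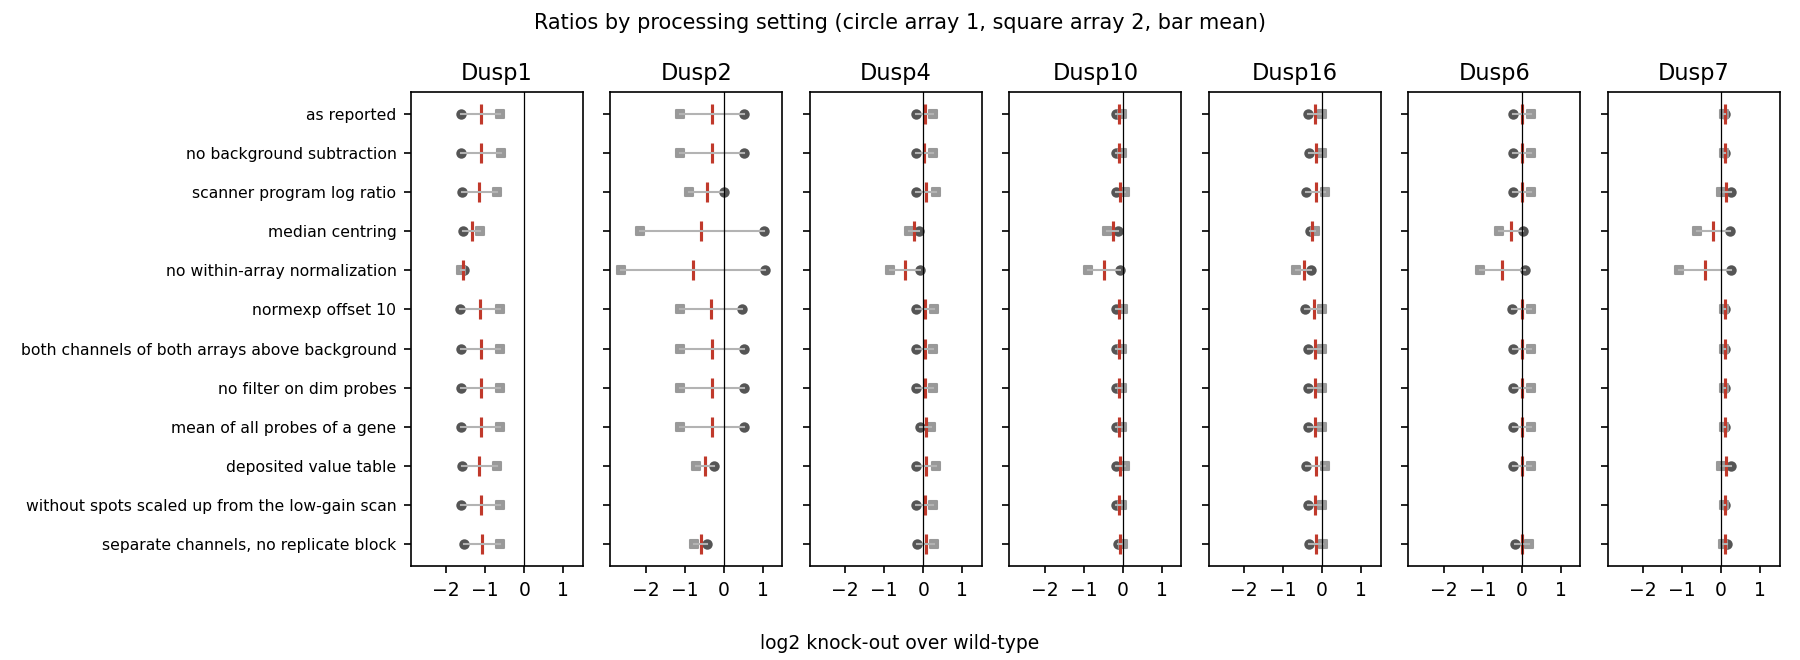
Knock-out over wild-type log2 ratio (horizontal axis) of each of the 7 phosphatases under 12 ways of processing (rows), with circles for array 1, squares for array 2 and a red bar for the mean. Dusp1 lies left of 0 on both arrays in every row, and the Dusp2 arrays share a side of 0 only with the deposited value table and with separate channels. Genes scaled up at low gain have no point where such spots were left out.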

How the data were processed

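The authors deposited scanner intensity values: per spot and colour, a mean and a local background median. They come from Agilent Feature Extraction 9.5.3.1, per the submitters' processing notes, with probe positions on mm8, per the file headers. The deposited log10 ratio of Cy5 over Cy3 had its background subtracted and its dyes normalized by the same program, per the file headers. The authors' deposited value table holds log2 ratios, which equalled the program's ratio, with the knock-out on top, within 0.001 at 42512 and 42515 of 43379 spots. Its column medians were 0.

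Here spots were background-corrected by normexp (offset 50) and ratios normalized by loess (span 0.3, 4 iterations, control spots, 1639 in all, weighted 0), with limma 3.58.1 (R 4.3.3). Outlier-flagged spots were dropped, and repeat spots of a probe averaged. A probe was kept where 1 genotype was well above background on both arrays, and the brightest probe stood for its gene. Levels are log2 channel intensities after loess and Aquantile. Ratios were fitted with lmFit and eBayes, dye orientation coded in the design (1 residual and 6.20 prior degrees of freedom), with two-sided p-values adjusted by Benjamini-Hochberg over all 17688 genes. A moderated SE is that of this fit, which draws the spread of each gene towards that of all genes. The fit was tested on simulated data. Accessions named 24375 probes, current symbols 6301 and synonyms 2426. The other 8072 kept the file's name.

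The members, lists and tests were chosen with earlier results of these data known. Text names all members, from each pathway list the genes past the threshold or up to 2 with the largest mean of the same sign on both arrays, and the 5 genes nearest to Dusp1. The values of 1 gene that this rule takes are not shown. Other genes named from those lists were chosen after their values were seen. The 12 samples were sorted individually but then pooled, so the p-values rest on pools and give no view of variation among single animals. Pool pair and dye orientation changed together from array to array. The residual of each gene therefore mixes pool, dye and array, which cannot be told apart.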

Additional observations from a re-analysis of the deposited data

How the results depend on the processing

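Only 1 residual degree of freedom is left per gene, and low signal over background limits dim probes such as those of Dusp16. The count of 18 genes (12 higher and 6 lower in the knock-out) was 0 with no background subtraction, with the program's own log ratio, with no within-array normalization, with the mean of all probes, with the deposited value table, and with separate channels and no replicate block. It was 4 with median centring, 9 where all 4 channels had to be above background, 78 with an intensity trend and robust prior, and 131 without spots scaled up from the low-gain scan. With a normexp offset of 10 it was 25, and with no filter on dim probes 19, each holding all 18 genes. Fewer genes than in the main fit were tested both where the count fell to 9 (16106 genes) and where it rose to 131 (16753 genes). The cause of the changes in the count was not tested. The count of pathway genes was 3 without scaled-up spots and 1 with the intensity trend (Jun), and 0 in the 10 other settings. The members' median of -0.10 was -0.26 under median centring and -0.48 without within-array normalization, which moved the median of all genes to -0.17 and -0.39. Leaving out 1 array gave a value with no test, from -1.62 to -0.61 for Dusp1 and from -0.18 to -0.01 for the members' median. Dusp2 was 0.51 without replicate 2 and -1.13 without replicate 1. The ratios within arrays already pair the pools, so the fit with separate channels and no replicate block is the unpaired one. In limma it called 0 genes, and 364 had an unadjusted p under 0.05.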
